A study of Mus musculus with 6 samples.

Results

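Enpp2 and Ptges encode 2 enzymes that make lipid mediators, and both had lower mean RNA levels in Snai2-/- than in control stromal cells of mouse bone marrow. They were picked by symbol, with their values known, from the 1285 genes of a table that compares the genotypes, so the values that follow describe them and test nothing. The study profiled RNA from mesenchymal stem and progenitor cells (MSPCs), stroma that supports blood stem cells in the marrow. The Snai2-/- group held 3 libraries from mice lacking Snai2, which encodes the zinc-finger repressor Slug, and the control group held 3 libraries from littermates. The table calls the controls wildtype, and the labels do not give their Snai2 alleles further. Mice of both groups were 8 weeks old, and each library was made from 2000 cells. In both groups the sort took cells that carried Nes-GFP, a reporter driven by nestin sequences, and lacked the leukocyte marker CD45, the erythroid marker Ter119 and the endothelial marker CD31.

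Autotaxin, the product of Enpp2, is a secreted lysophospholipase D of the ENPP family of phosphodiesterases. It removes choline from lysophosphatidylcholine outside the cell and leaves lysophosphatidic acid (LPA), which signals through G-protein-coupled LPA receptors until lipid phosphatases break it down. Autotaxin is known as a product of adipose tissue and of mesenchymal and endothelial cells, and LPA acts on the motility and growth of many cell types. Prostaglandin E synthase, the product of Ptges, is the inducible microsomal enzyme also called mPGES-1, a member of the MAPEG family of membrane enzymes. Phospholipase A2 enzymes free arachidonic acid, the cyclooxygenases Ptgs1 and Ptgs2 turn it into prostaglandin H2, and Ptges converts that intermediate into prostaglandin E2. Prostaglandin E2 acts through 4 receptors encoded by Ptger1 to Ptger4, and in bone and marrow it is known for effects on osteoblasts and on blood stem cells.

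Ptges lies on mouse chromosome 2 (GRCm38, 30889471 to 30929863, minus strand) and is protein coding. GENCODE M21 gives it 4 transcripts over 6 separate exonic blocks with 3931 exonic bases. Its 300-base promoter window, from 250 bases before to 50 bases after the RefSeq start, is shown because Ptges is the member with an entry in the RefSeq table (build GRCm38.p6) and because Slug is known to bind E-boxes. That start, base 30903297, is also where the protein-coding GENCODE transcript of Ptges begins, and of the 4 transcripts 1 starts within 100 bases of it. Another, annotated as a processed transcript, starts 26.6 kb upstream and sets the outer end of the gene span, and no sequence of its start is shown. It was read from chr2:30903248-30903547 on the minus strand and is written 5′ to 3′, with an E-box core (CANNTG) and 2 GC boxes (GGGCGG) in capitals.
Ptges: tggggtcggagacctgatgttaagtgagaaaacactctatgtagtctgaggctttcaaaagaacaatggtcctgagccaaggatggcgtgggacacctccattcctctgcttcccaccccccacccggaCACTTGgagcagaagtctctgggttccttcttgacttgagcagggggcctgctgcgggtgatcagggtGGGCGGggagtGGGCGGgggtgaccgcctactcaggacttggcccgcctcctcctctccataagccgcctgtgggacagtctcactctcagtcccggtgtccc
Both strands were searched. The Snail-family E-box CAGGTG, which reads CACCTG on the other strand and is one form of CANNTG, had no match in this window, while 20.2% of all 32851 windows of the same length held it. The letters CANNTG matched once, starting at position -121 from the start, and 72.3% of all windows held at least 1 match. GGGCGG matched at positions -53 and -42, and 19.5% of all windows held 2 or more such matches. The TATA motif TATAAA did not match, and 13.6% of windows held it. These matches describe letters and not binding.

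Enpp2 lies on chromosome 15 (54838901 to 54952892, minus strand), with 9 transcripts over 30 exonic blocks and 5779 exonic bases. Snai2 lies on chromosome 16, so neither gene is on the chromosome of the deleted gene. A long noncoding RNA, Gm26684, runs on the opposite strand across the first part of Enpp2 and covers 345 of its exonic bases. The library chemistry named in the labels does not mark strand, so reads of the 2 genes cannot be told apart there. Gm26684 was not among the listed genes. A processed pseudogene, Gm13400, lies within the span of Ptges and covers 0 of its exonic bases.

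For each gene the table gives the authors' normalized mean of either group, the ratio of those means, a p before adjustment and a false discovery rate (FDR, a p adjusted by the step-up method over all genes tested). Values of single libraries were not analysed here, nor were their read totals, so each mean, over 3 libraries, stands without a spread or a depth, and whether the libraries of the 2 groups overlap is unknown. No source used here gives the scale of the means, so levels are compared mainly between groups for 1 gene. The distances between genes and the sums over genes given below depend on that unknown scale. The table lists genes with an unadjusted p below 0.05, and its FDR values correspond to 16718 genes tested. Listed genes were therefore 7.69% of those tested, 3.91% with a lower and 3.77% with a higher mean in Snai2-/- cells. Genes at FDR below 0.05 were 0% of those tested, by the authors' adjustment, and all 1285 had an unadjusted p below 0.05, so "lower" and "higher" here describe means and not calls. For Snai2, the targeted gene, the authors' deposited table gives a mean of 9.20 in Snai2-/- cells and 636 in control cells, which fits the labels.

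Autotaxin RNA had a several-fold lower mean in Snai2-/- cells. For Enpp2 the authors' deposited table gives a mean of 31.0 in Snai2-/- cells and 139 in control cells. Their ratio is 0.224 by the authors' deposited table, a log2 ratio of -2.16, which is 4.47 times lower in Snai2-/- cells. By the authors' deposited table the unadjusted p was 0.001 and the FDR 0.313, which ranks Enpp2 at 53 of 1285 by p. Of the 654 listed genes with lower means, 13 had a smaller p than Enpp2.

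Prostaglandin E synthase RNA was lower by a similar factor. For Ptges the authors' deposited table gives a mean of 6.33 in Snai2-/- cells and 23.0 in control cells. Their ratio in the authors' deposited table was 0.276, a log2 ratio of -1.86, which is 3.63 times lower in Snai2-/- cells. By the authors' deposited table the unadjusted p was 0.000512 and the FDR 0.269, with rank 31 by p and 5 genes with lower means ahead of it. The log2 ratio of Enpp2 was below that of Ptges by a difference of -0.30. No error can be attached to that difference, which was not tested.

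Both ratios lay well below the middle of the listed genes, which is a description of genes chosen for their values. The median log2 ratio was -0.36 over all 1285 listed genes and -0.81 over the 654 with lower means. Genes without a p below 0.05 are absent, so -0.36 does not give a shift of all genes tested. Of the listed genes, 18.4% were at least 2-fold lower in Snai2-/- cells, and 7.08% had a ratio at or below that of Ptges. Among the 557 lower genes with both means at least 1, Enpp2 ranks 12 and Ptges ranks 18 from the lowest ratio upward in the authors' deposited table. In bulk samples, fewer cells that express a gene and less RNA of it per cell cannot be told apart.

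**Figure D1:**
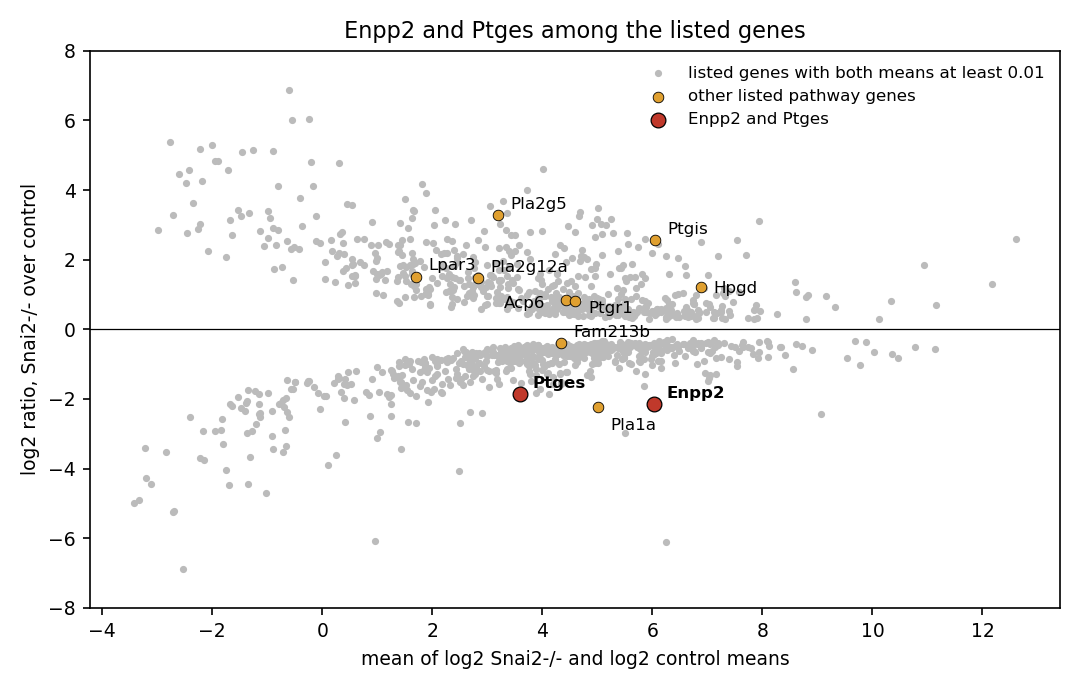
Log2 ratio of Snai2-/- over control means (vertical axis) against the mean of the log2 Snai2-/- and log2 control means (horizontal axis, authors' normalized scale), with 1 point per listed gene whose means are both at least 0.01. Enpp2 at -2.16 and Ptges at -1.86 lie below most listed genes of like level, as does Pla1a, while most other listed pathway genes lie above 0. The empty band around 0 comes from the listing of genes with p below 0.05.

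Around autotaxin, Acp6 and Lpar3 of the LPA lists had higher means in Snai2-/- cells, and Pla1a and the chosen Enpp2 lower ones. Of 13 genes of LPA synthesis and breakdown 3 were listed (23.1%, against 7.69% of all genes tested), 1 higher and 2 lower in Snai2-/- cells. Here and below, the share of a list is over all its genes, of which some may not have been tested. The list's median log2 ratio was -2.16, the value of Enpp2 itself. Pla1a is on this list although it encodes a secreted phospholipase A1 that makes lysophosphatidylserine. The other lower gene was the chosen Enpp2. For Pla1a the authors' deposited table gives a mean of 15.0 in Snai2-/- cells and 69.9 in control cells. The Pla1a ratio, 0.214 by the authors' deposited table, was close to that of Enpp2, and its FDR was 0.263. For Acp6, a phosphatase that degrades LPA, the authors' deposited table gives 29.1 in Snai2-/- cells and 16.2 in control cells and a ratio of 1.80. The LPA-producing kinase gene Agk and the phosphatase genes Plpp1, Plpp2 and Plpp3 were not listed, so each either had a p that missed 0.05 or was not tested.

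Of the 6 LPA receptor genes 1 was listed (16.7%). For Lpar3 the authors' deposited table gives a mean of 5.50 in Snai2-/- cells and 1.93 in control cells, with a ratio of 2.85 and an FDR of 0.381. Lpar1, Lpar2, Lpar4, Lpar5 and Lpar6 were not listed. The mean of the LPA-producing enzyme was lower and that of this receptor higher in Snai2-/- cells.

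Within the ENPP family, 3 of 7 genes were listed (42.9%, against 7.69% of all genes tested), 1 of them the chosen Enpp2, which was the 1 with a lower mean. Enpp6 encodes a phosphodiesterase that removes phosphocholine from choline lipids such as lysophosphatidylcholine, the substrate of autotaxin. For Enpp6 the authors' deposited table gives a mean of 56.6 in Snai2-/- cells and 13.9 in control cells, with a ratio of 4.06 and an FDR of 0.562. For Enpp5 the authors' deposited table gives 287 in Snai2-/- cells and 190.2 in control cells and a ratio of 1.51. The median log2 ratio of the 3 listed genes was 0.59, the value of Enpp5.

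The prostanoid synthesis genes listed with Ptges were Ptgis, with a higher mean in Snai2-/- cells, and Fam213b, with a lower one. Of 12 genes of prostanoid synthesis 3 were listed (25.0%, against 7.69% of all genes tested), 1 of them the chosen Ptges. The 1 higher and 2 lower ones had a median log2 ratio of -0.39, the value of Fam213b. Ptgis, prostacyclin synthase, takes the same substrate as Ptges. For Ptgis the authors' deposited table gives a mean of 161 in Snai2-/- cells and 27.4 in control cells, with a ratio of 5.87 and an FDR of 0.356. Fam213b encodes a prostaglandin F synthase that also acts on prostaglandin H2. For Fam213b the authors' deposited table gives 17.6 in Snai2-/- cells and 23.2 in control cells and a ratio of 0.761. The FDR of Fam213b was 0.632, and it ranks 1152 of 1285 by p. Of these 3 listed synthases, which use prostaglandin H2 as substrate, Ptges and Fam213b had the lower and Ptgis the higher mean in Snai2-/- cells. The synthase genes Ptgds, Hpgds and Tbxas1, the cyclooxygenase genes Ptgs1 and Ptgs2 and the other prostaglandin E synthase genes, Ptges2 and Ptges3, were not listed.

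Upstream of the cyclooxygenases, 2 of 16 phospholipase A2 genes were listed (12.5%), both with higher means in Snai2-/- cells. For Pla2g5, a secreted enzyme, the authors' deposited table gives a mean of 28.4 in Snai2-/- cells and 2.94 in control cells, with a ratio of 9.65 and an FDR of 0.389. For Pla2g12a, also secreted, the authors' deposited table gives 11.8 in Snai2-/- cells and 4.25 in control cells and a ratio of 2.78. The cytosolic enzyme gene Pla2g4a was not listed.

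Downstream of Ptges, 2 of 15 genes of prostanoid receptors, transport and inactivation were listed (13.3%), both with higher means in Snai2-/- cells. For Hpgd, the dehydrogenase that inactivates prostaglandin E2, the authors' deposited table gives a mean of 180.4 in Snai2-/- cells and 77.7 in control cells, with a ratio of 2.32 and an FDR of 0.484. For Ptgr1, a reductase of the next step of inactivation, the authors' deposited table gives 32.2 in Snai2-/- cells and 18.3 in control cells and a ratio of 1.76. None of the receptor genes Ptger1 to Ptger4 was listed.

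**Figure D2:**
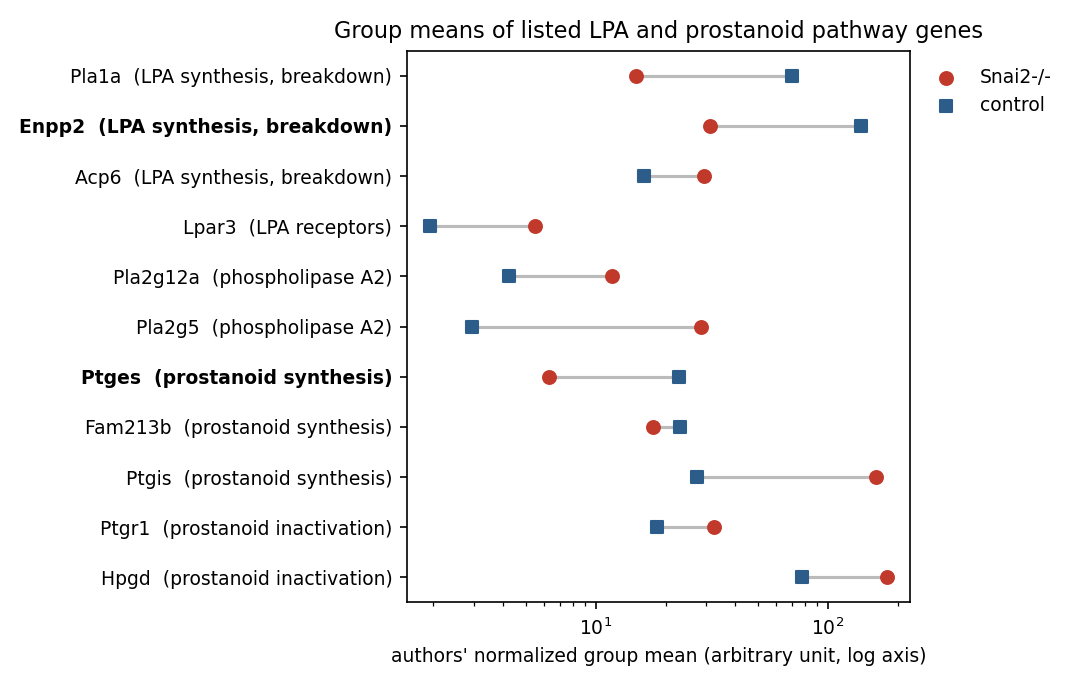
Authors' normalized group means (horizontal log axis, arbitrary unit) of the 11 listed genes of the LPA and prostanoid lists. Snai2-/- means are circles and control means squares, with no error bars because library values were not analysed. Enpp2, Pla1a, Ptges and Fam213b have the circle left of the square (lower in Snai2-/- cells), and the other 7 genes have it on the right.

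Over the lists of both pathways, which include Pla1a, 11 of 62 genes were listed, 7 higher and 4 lower in Snai2-/- cells. Of them, 0 had an FDR below 0.05. Without Enpp2 and Ptges themselves, 9 were listed, and the 7 higher and 2 lower ones had a median log2 ratio of 1.22. The listed share of 17.7% stands above the 7.69% of all genes tested, but the lists were written with results of this table known and both members were known to be in it. Of the MAPEG family, 1 of 6 genes was listed (16.7%), Ptges itself. Of 18 cytokine and NF-kB genes that act on prostaglandin synthesis, 3 were listed (16.7%). In the authors' deposited table the receptor genes Tlr2 and Tlr4 have ratios of 0.654 and 0.676 and the cytokine gene Il6 a ratio of 3.85. Il1a, Il1b, Tnf and Egr1 were not listed.

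Likeness to each member was measured as distance over the log2 means of both groups, 2 values with no correction for gene length made here. The 3 genes with the nearest pair of means were taken for each member. For Enpp2 they were Lcp2, an adaptor of haematopoietic receptors, the interferon-inducible gene Ifi204 and the collagen gene Col16a1. Their distances were 0.46, 0.66 and 0.76 on the log2 scale, and each had a ratio nearer to 1 than Enpp2. For Lcp2, the nearest, the authors' deposited table gives means of 32.6 in Snai2-/- cells and 101 in control cells and a ratio of 0.321. For Ptges they were Tril, an accessory protein of Toll-like receptors, Lpcat4, a lysophospholipid acyltransferase, and the interferon-induced gene Ifit1. Their distances were 0.23, 0.33 and 0.40 on the log2 scale. For Tril the authors' deposited table gives means of 7.17 in Snai2-/- cells and 20.8 in control cells, and for Lpcat4 6.63 in Snai2-/- cells and 18.3 in control cells.

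Markers of several cell types were listed in the same table, none at FDR below 0.05, and their part in the values of Enpp2 and Ptges was not tested. Shares of listed markers are set beside the 7.69% of all genes tested, although a list may hold genes that were not tested. The marker lists were written with earlier results of this table known, so a high share is no test of enrichment. Sums of means are over the listed markers of a list on the authors' scale, so genes with large means set them. Of 18 markers of marrow stromal progenitors 2 were listed (11.1%), both lower. Their means sum to 336 in Snai2-/- cells and 534 in control cells, and the rest, among them Cxcl12, Lepr, Pdgfra and Nes, were not listed. In the authors' deposited table Ebf1, a transcription factor of these cells, has a ratio of 0.58 and the growth factor gene Angpt1 a ratio of 0.736. Those 2 markers were listed for a p below 0.05 and the scale of their means is unknown, so they do not check the labelled cell type.

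Osteoblast markers were listed for 8 of 17 genes (47.1%), 7 higher and 1 lower, with summed means of 24141 in Snai2-/- cells and 6053 in control cells, most of it Col1a1 and Spp1. The authors' deposited table gives Col1a1 a ratio of 5.99, Spp1 2.48 and Alpl 2.56, with FDRs of 0.582, 0.65 and 0.574. Runx2, Sp7, Col1a2, Bglap, Ibsp and Sparc were among the 9 osteoblast markers not listed. The study's title names osteopontin, the product of Spp1, so that gene's direction is not independent evidence. Of 13 chondrocyte markers 4 were listed (30.8%), all higher, with summed means of 707 in Snai2-/- cells and 146 in control cells. By the authors' deposited table the ratio was 4.36 for Col11a1, 4.31 for Comp and 11.1 for Chad. Sox9, Acan, Col2a1 and Col10a1 were among the 9 chondrocyte markers not listed.

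Of 16 adipocyte markers 2 were listed (12.5%), Scd1 and Pnpla2, both higher, with summed means of 173 in Snai2-/- cells and 59.5 in control cells. The other 14, among them Pparg, Adipoq, Fabp4, Plin1 and Lpl, were not listed. Neutrophil and monocyte markers were listed for 7 of 18 genes (38.9%), all higher, with summed means of 820.1 in Snai2-/- cells and 186 in control cells. The authors' deposited table gives Ngp a ratio of 5.72, S100a9 2.95 and Camp 3.64, and Lyz2, Csf1r and Itgam were not listed. Of 15 endothelial markers 2 were listed (13.3%), and they went opposite ways. For Flt4 the authors' deposited table gives 6.85 in Snai2-/- cells and 3.28 in control cells, and for Vwf 1.38 in Snai2-/- cells and 23.0 in control cells. Their sum of 8.23 in Snai2-/- cells and 26.3 in control cells therefore takes its direction from Vwf alone, and Pecam1, Cdh5 and Kdr were not listed. Of 12 pericyte and smooth muscle markers 2 were listed (16.7%), both lower, with summed means of 186 in Snai2-/- cells and 275 in control cells. By the authors' deposited table the ratio was 0.406 for Des and 0.727 for Mylk. General leukocyte and erythroid markers were listed for 1 gene each, Cd48 of 10 (10%) and Car1 of 12 (8.33%), both higher. For Cd48 the authors' deposited table gives means of 3.64 in Snai2-/- cells and 1.21 in control cells, and for Car1 137 in Snai2-/- cells and 45.7 in control cells. No listed marker named here had a mean of 0 in either group.

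**Figure D3:**
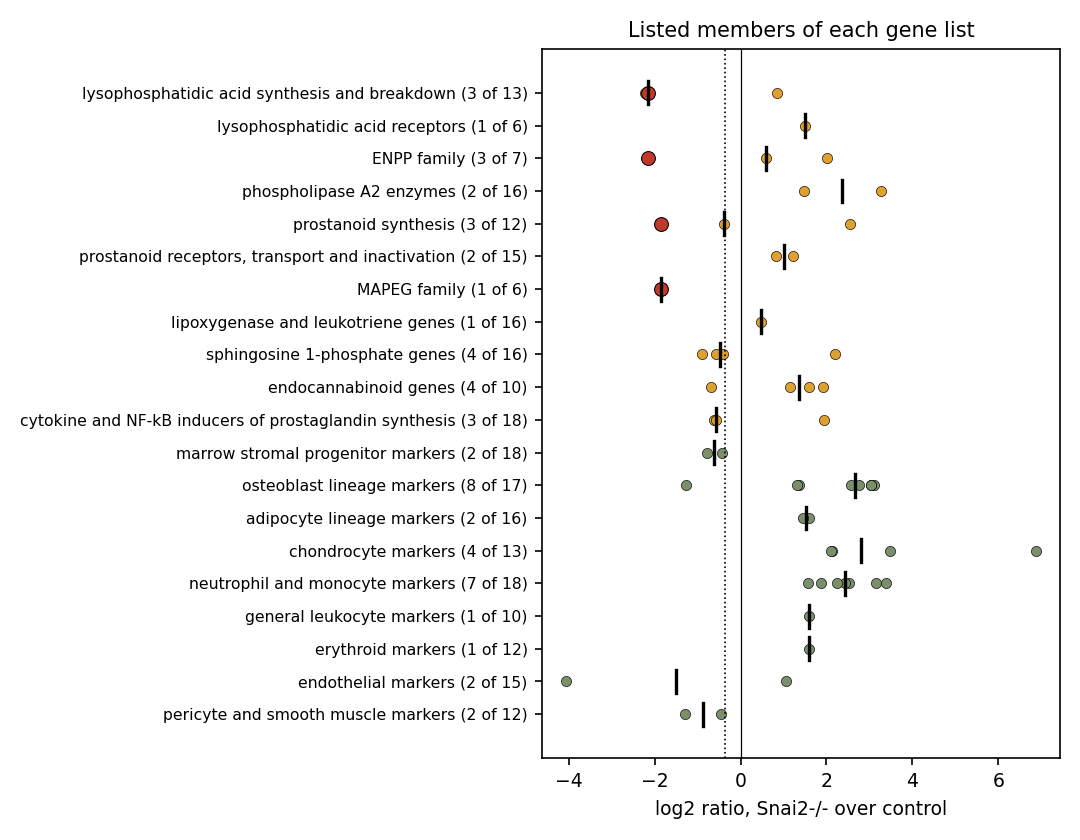
Log2 ratio of Snai2-/- over control means (horizontal axis) for each listed member of the 20 gene lists, with the number listed of the number in the list beside each name. Red points are Enpp2 and Ptges, amber points other pathway genes, green points cell type markers, black bars list medians, and the dotted line the median of all listed genes at -0.36. Enpp2 and Ptges lie left of 0 while most listed osteoblast, chondrocyte and neutrophil markers lie right of it. The listed markers of stromal progenitors and of pericytes and smooth muscle also lie left of 0.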

How the data were processed

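Bulk RNA-seq of 6 libraries, 3 from Snai2-/- and 3 from control MSPCs, was summarised by the authors in 1 table. Per the labels' protocols, SMART-Seq v4 amplified the RNA and Nextera XT made the libraries, chemistries that do not mark strand. Tools named in the submitters' processing notes are Trim Galore, HTSeq and edgeR 3.12.0, with mm10 as the build and no roles stated. No source used here gives the aligner or the model behind the p-values. Per the file headers, each gene has a least-squares mean per group, their ratio, a signed fold change (a score, negative for lower genes), a p-value and its step-up FDR. The header's mutant was taken to mean Snai2-/- and its wildtype control. The deposited means are a signal normalized by the authors: 0 of 1285 totals are whole, and in 1285 rows the total is 3 times both means added, within a relative 1e-06. The labels do not say that libraries came from separate animals, so the authors' p may rest on partly technical spread.

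No test was made here. Counting intervals need depth, which is unknown. The number of genes tested, 16718, was recovered from FDR, rank and p, and a step-up adjustment over it matched the deposited FDR within 0.0225%. The recovery was tested on simulated data. The members and the 20 lists (261 symbols) were chosen with earlier results of these data known. Named were the members, Snai2, every listed gene of the 11 pathway and family lists, up to 3 listed genes with the largest totals of each of the 9 marker lists, and the 3 listed genes nearest to each member, leaving out predicted models, Rik clones and ribosomal genes. The motif GGGCGG was chosen after the sequence was seen. GRCm38 coordinates (the mm10 assembly) come from GENCODE M21. Alternatives were pseudocounts, centring, FDR limits and a minimum mean. Python 3.11.15, numpy 2.4.6, pandas 2.3.3 and matplotlib 3.10.9 were used.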

Additional observations from a re-analysis of the deposited data

How the results depend on the processing

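A pseudocount on both means cannot change which mean of Enpp2 or Ptges is lower, and centring moves all genes alike, so these alternatives show size and not stability. The log2 ratio of Enpp2 moved to -2.14, -2.12 and -1.99 with a pseudocount of 0.5, 1 and 5 on both means. For Ptges it moved to -1.78, -1.71 and -1.30 with the same pseudocounts. Centring on the median log2 ratio of listed genes (-0.36) gave -1.80 for Enpp2 and -1.50 for Ptges. That median covers only genes listed for their p, so it is not a known shift of all genes tested. An FDR limit of 0.1 admitted 1 gene, Snai2, where 0.05 admitted 0. Of the 590 listed genes with at least a 2-fold difference, 59.8% were higher in Snai2-/- cells. With both means at least 1 there were 393 such genes, 64.4% of them higher, and with a pseudocount of 1 there were 419, 68.5% of them higher. After centring 75.0% were higher. The 3 genes nearest to each member were the same with a pseudocount of 1. No paired analysis was possible because the table gives 1 mean per group. Leaving out each replicate was not run for the same reason, so whether 1 library decides a value of Enpp2 or Ptges is not known here. Depth per library is unknown.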

Other observations

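Genes of other lipid mediators were also listed, on lists written with earlier results of this table known, and none had an FDR below 0.05. Of 16 sphingosine 1-phosphate genes 4 were listed (25%, against 7.69% of all genes tested), 1 higher and 3 lower. Their median log2 ratio was -0.49. For Spns2, the exporter of sphingosine 1-phosphate, the authors' deposited table gives means of 10.3 in Snai2-/- cells and 2.24 in control cells and a ratio of 4.58. By the authors' deposited table the ratio was 0.754 for the lyase gene Sgpl1, 0.673 for the receptor gene S1pr2 and 0.54 for the ceramidase gene Asah2.

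Of 10 endocannabinoid genes 4 were listed (40%, against 7.69% of all genes tested), 3 higher and 1 lower. Their median log2 ratio was 1.36. Mgll and Abhd6 encode hydrolases of 2-arachidonoylglycerol. For Mgll the authors' deposited table gives means of 26.9 in Snai2-/- cells and 8.99 in control cells, and for Abhd6 10.5 in Snai2-/- cells and 2.79 in control cells. The authors' deposited table gives Dagla, which makes that lipid, a ratio of 2.21 and the amidase gene Naaa a ratio of 0.624. Of 16 lipoxygenase and leukotriene genes 1 was listed (6.25%, below the 7.69% of all genes tested). It was the hydrolase gene Lta4h, for which the authors' deposited table gives 73.8 in Snai2-/- cells and 52.9 in control cells.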
